A study of Homo sapiens with 12 samples.

Results

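The question here was whether the expression difference between cells with a doubled DNA content and cells with a single diploid content was altered when Anillin was depleted, gene by gene. It was measured as a difference of differences, called the interaction below: the 4N minus 2N difference in Anillin siRNA cultures minus the 4N minus 2N difference in control cultures. All 12 of the 12 libraries of the series entered it, in 4 groups of 3. Of the 57773 gene identifiers in the deposited table, 12892 passed a filter on RPKM and were tested. The cells were RPE1, an immortalised human epithelial line from the retinal pigment epithelium, and the labels name neither a clone nor a genetic change. Control 2N and control 4N cells received a non-targeting siRNA, and Anillin 2N and Anillin 4N cells received siRNA against Anillin. Both treatments used Lipofectamine RNAiMAX for 24 h. In all 4 groups a Hoechst DNA dye was then given to the living cells (2 µg/mL, 60 min, 37 °C), which were separated by DNA content in a cell sorter, per the labels' protocols. The design text speaks of biological replicates without naming separate cultures, and p-values therefore reflect the spread among these libraries, which may be technical.

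Anillin is a scaffold of the contractile ring, where it binds actin, myosin and septins, and cells that lack it can enter mitosis and then fail to divide. A 4N fraction sorted from dividing cells holds cells in G2 and mitosis, which carry replicated chromosomes and the messengers for dividing them. After a failed division it can also hold cells with a doubled genome that are back in G1. The transcription factor p53 is known to hold back the cycling of such cells, through targets such as the CDK inhibitor p21 (CDKN1A). The labels give no share of cells in each cell cycle phase, so the makeup of each fraction was not measured, and in these bulk samples fewer cells of a type and less RNA per cell cannot be told apart.

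Genes that rise in G2 and mitosis often carry a CHR element and CCAAT boxes just upstream of their start. The CHR element was searched for only as TTTGAA, so a window without this string may still hold one. Shown are the promoters of 3 mitotic genes with a lower interaction, 2 with TTTGAA and 1 without, and that of MDM2, with a higher one. They were picked after their motifs were seen. The windows run from 250 bases before to 50 bases after the RefSeq start on GRCh38.p14, on the strand of the gene, 5′ to 3′. Capitals mark TTTGAA and CCAAT on either strand, so that TTCAAA and ATTGG are their reverse forms. CDK1 (chr10:60778081-60778380) held 1 of each motif, CCNB1 (chr5:69166900-69167199) held no TTTGAA and 2 CCAAT matches, CDC20 (chr1:43358731-43359030) held 2 of each, and MDM2 (chr12:68807922-68808221) held no TTTGAA and an overlapping pair of CCAAT matches.
CDK1: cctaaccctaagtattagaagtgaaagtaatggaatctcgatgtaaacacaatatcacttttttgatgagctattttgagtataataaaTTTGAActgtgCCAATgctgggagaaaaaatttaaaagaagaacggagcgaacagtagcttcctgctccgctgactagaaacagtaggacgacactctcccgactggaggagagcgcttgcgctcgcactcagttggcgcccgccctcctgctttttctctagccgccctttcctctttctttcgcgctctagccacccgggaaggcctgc
CCNB1: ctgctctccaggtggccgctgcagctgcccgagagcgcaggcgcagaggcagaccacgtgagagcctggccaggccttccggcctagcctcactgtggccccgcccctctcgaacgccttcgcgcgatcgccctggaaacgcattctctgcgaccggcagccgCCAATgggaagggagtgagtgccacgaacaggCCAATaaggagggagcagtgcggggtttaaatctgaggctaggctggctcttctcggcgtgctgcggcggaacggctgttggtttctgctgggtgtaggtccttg
CDC20: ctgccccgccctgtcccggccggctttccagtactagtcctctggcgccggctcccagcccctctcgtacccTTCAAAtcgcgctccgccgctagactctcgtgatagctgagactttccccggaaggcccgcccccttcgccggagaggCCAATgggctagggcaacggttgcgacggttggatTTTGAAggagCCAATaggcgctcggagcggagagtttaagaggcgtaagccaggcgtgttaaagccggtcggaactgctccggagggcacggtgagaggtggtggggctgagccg
MDM2: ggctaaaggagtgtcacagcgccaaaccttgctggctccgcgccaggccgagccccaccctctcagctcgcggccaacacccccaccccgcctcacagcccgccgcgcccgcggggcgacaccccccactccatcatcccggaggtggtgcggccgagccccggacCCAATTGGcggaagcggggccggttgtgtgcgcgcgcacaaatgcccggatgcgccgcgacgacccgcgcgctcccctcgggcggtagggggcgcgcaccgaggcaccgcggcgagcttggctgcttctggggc

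A RefSeq promoter window was at hand for 7009 of the genes tested. TTTGAA lay in 9.16% of these windows, in 19.8% of the 982 from genes with a lower interaction and in 6.75% of the 415 from genes with a higher one. Among the 84 windows of genes with an interaction at least 2-fold lower, 63.1% held TTTGAA, 70.2% held CCAAT and 48.8% held both, against 9.16%, 38.1% and 4.19% of all tested genes with a window. Over all 27305 windows of the table the shares were 15.4% for TTTGAA, 35.7% for CCAAT and 6.08% for both. Of the genes named by the rules below, 8 belong to the G2/M and anaphase-promoting complex lists and had a window. CDK1, PLK1, ESPL1 and CDC20 held TTTGAA, and NEK2, CCNB1, CCNA2 and UBE2S did not. CCNB1, CCNA2 and CDC20 were named whatever their values, and PLK1 through the contractile ring list. By list, TTTGAA was found in 15 of 24 windows of mitotic kinesins and microtubule proteins, in 15 of 22 of kinetochore genes, in 11 of 17 of condensin and cohesin genes, in 9 of 17 of G2/M regulators, in 3 of 10 of anaphase-promoting complex genes, in 6 of 22 of contractile ring genes, in 2 of 30 of DNA replication genes and in 1 of 29 of p53 targets. A match gives the letters of the window only and is not a bound site, and a window without TTTGAA is not shown to lack a CHR element.

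Across the transcriptome the interaction passed the threshold for 2019 genes (15.7% of those tested), with an adjusted p under 0.05 by limma-trend on log2(RPKM + 0.5) and Benjamini-Hochberg adjustment over all genes tested. It was higher, meaning a more positive 4N minus 2N difference in Anillin cultures, for 636 genes (4.93%), and lower for 1383 genes (10.7%). These 2 shares are the background for each list count below. The median interaction over all tested genes was −0.04, with quartiles of −0.17 and 0.11, and the median SE was 0.088. Among genes past the threshold the median was 0.35 for higher and −0.37 for lower. An interaction of at least 2-fold was lower for 133 genes, 99 of them protein coding, and higher for 24, of which only MDM2 and RRAD were annotated as protein coding and the other named ones were small RNAs, an antisense transcript or pseudogenes. On recovered reads (limma-voom, 22404 genes tested) the 2-fold counts were 216 lower and 137 higher, so that the predominance of lower values at this size was smaller there. The balance of directions moved with the scaling: after quantile scaling 781 genes were higher and 1100 lower, so that 41.5% of calls were higher, against 31.5% as scaled by the authors, and on recovered reads 43.7% were higher. Of the 2019 genes, 1006 passed in each of the 12 fits that left out 1 library, 304 higher and 702 lower. Without control 4N replicate 1 the counts were 340 higher and 753 lower, without control 4N replicate 3 the lower count was 811, and without Anillin 4N replicate 2 the higher count was 402.

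The 1383 lower interactions were mostly rises with DNA content that were called in control cultures and not in Anillin cultures. In control cultures alone, 3079 genes (23.9%) rose and 1703 (13.2%) fell from 2N to 4N, while in Anillin cultures 336 (2.61%) rose and 125 (0.97%) fell. Of the genes with a lower interaction, 1175 (85.0%) rose in control cultures and did not pass the threshold in Anillin cultures, where their median difference was 0.02 against 0.37 in control. A further 144 rose in both, by a median of 1.71 in control and 0.55 in Anillin cultures. These medians are on log2(RPKM + 0.5), where the pseudocount of 0.5 compresses the differences of genes with low levels. Another 23 fell in Anillin cultures only by this call, 7 rose in control and fell in Anillin cultures, and 34 passed in neither. Of the 636 genes with a higher interaction, 490 (77.0%) fell in control cultures and did not pass in Anillin cultures, with medians of −0.30 and 0.04. The rest were 56 genes that rose in Anillin cultures only by this call, 52 that passed in neither, 22 that fell in control and rose in Anillin cultures, 10 that fell in both and 6 that rose in both. Seen from the siRNA side, 17.1% of tested genes were lower and 11.4% higher after Anillin siRNA in the 2N fraction, and 31.5% and 20% in the 4N fraction. By these calls 657 of the 1383 genes with a lower interaction were lower in Anillin than in control cells in both fractions, and 628 were lower in the 4N fraction and not called in 2N. Of the 636 with a higher interaction, 334 were higher in Anillin cells in 4N and not called in 2N, and 185 were higher in both fractions.

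**Figure D1:**
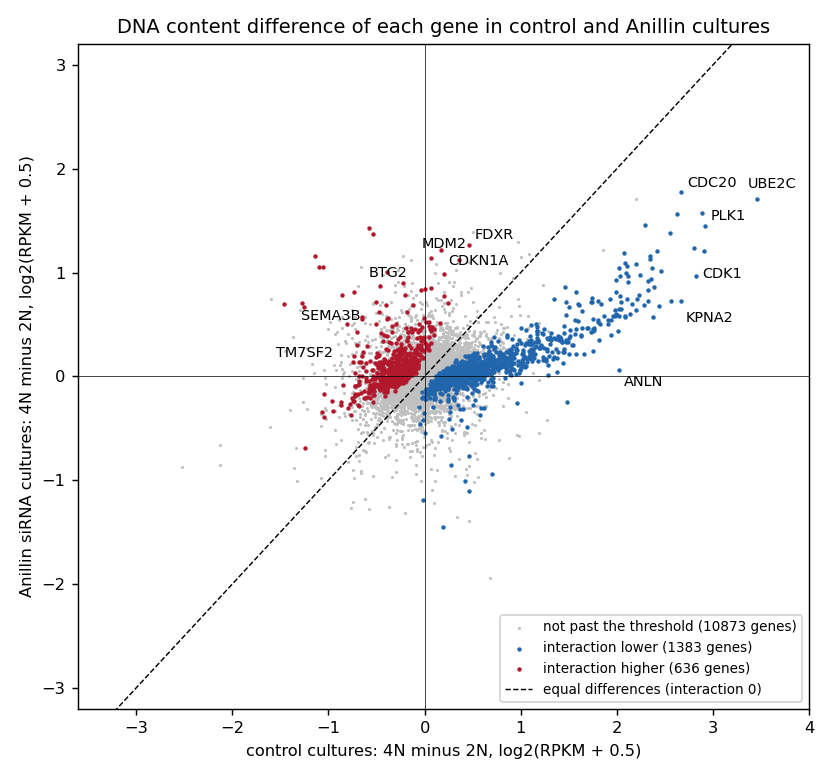
Each point is 1 of the 12892 genes tested, with its 4N minus 2N difference in control cultures on the horizontal axis and in Anillin siRNA cultures on the vertical axis, both in log2(RPKM + 0.5). The 1383 genes with a lower interaction lie below the dashed line of equal differences and spread to the right up to UBE2C at 3.46 in control and 1.71 in Anillin cultures, while the 636 with a higher interaction lie above it.

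ANLN itself, the target of the siRNA (ENSG00000011426, chr7:36389806-36453791 in GENCODE 29 on GRCh38, as are all gene positions below), had the largest negative interaction of the named genes. Its RPKM was 1.88, 1.25 and 1.66 in control 2N, 8.42, 7.45 and 7.98 in control 4N, 0.0850, 0.0582 and 0.0395 in Anillin 2N against 0.0989, 0.0855 and 0.0700 in Anillin 4N. All 6 Anillin libraries therefore lay below all 6 control libraries, as their labels require, and the 2 Anillin fractions overlapped. ANLN rose by 2.02 with DNA content in control cultures, while its difference in Anillin cultures was 0.06 ± 0.096 (SE, adjusted p = 0.802). The interaction was −1.96 ± 0.14 (SE, adjusted p = 2.51e-05, limma-trend). The Anillin values lie under the pseudocount of 0.5, which compresses their differences. On the recovered reads, 57 to 259 per Anillin library, the interaction was −1.95 and the difference in Anillin cultures 0.37 ± 0.28. As the target of the siRNA, ANLN is set apart from the genes described next.

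The regulators of entry into mitosis had lower interactions as a group. Of 24 listed and tested, 22 were lower and none was higher, against 10.7% and 4.93% of all genes, and their median was −1.18 against −0.04. The median 4N minus 2N difference was 1.96 in control and 0.72 in Anillin cultures, and 18 of the 22 still rose with DNA content in Anillin cultures. The pseudocount of 0.5 compresses the differences of low values, and on recovered reads these medians were 2.46 and 1.33. CDK1 (ENSG00000170312, chr10:60778331-60794852), the kinase that drives mitosis and the owner of the first promoter above, read 2.04, 1.38 and 1.62 RPKM in control 2N and 16.0, 14.2 and 14.4 in control 4N. In Anillin cultures it read 0.631, 0.576 and 0.519 in 2N against 1.53, 1.63 and 1.65 in 4N, so that the Anillin 4N libraries lay within the range of control 2N. Its interaction was −1.85 ± 0.14 (SE, adjusted p = 3.25e-05, limma-trend), from 2.82 in control and 0.97 in Anillin cultures. On recovered reads these differences were 3.14 and 1.46.

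PLK1 (ENSG00000166851, chr16:23677656-23690367), a kinase of centrosome maturation and cytokinesis, read 1.85, 1.21 and 1.70 RPKM in control 2N, 15.4, 14.3 and 15.7 in control 4N, 0.802, 0.765 and 0.758 in Anillin 2N against 2.96, 2.87 and 3.15 in Anillin 4N. The 4 groups did not overlap, and the interaction was −1.46 ± 0.14 (SE, adjusted p = 0.000137, limma-trend). CCNB1, the cyclin B1 partner of CDK1, read 5.77, 3.92 and 4.80 in control 2N, 28.3, 24.5 and 26.0 in control 4N, 1.93, 1.90 and 1.83 in Anillin 2N against 4.71, 4.78 and 5.04 in Anillin 4N. Its Anillin 4N libraries lay within the range of control 2N, and its interaction was −1.18. The kinase AURKA had an interaction of −1.60, cyclin A2 (CCNA2) one of −1.17 and the transcription factor FOXM1 one of −0.60. NEK2, a centrosome kinase, gave −1.56, and −0.84 on recovered reads. The 2 members that did not pass were MYBL2 at −0.33 and WEE1, a kinase that restrains CDK1, at −0.12.

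Messengers for proteins of the kinetochore and spindle were mostly lower too, 27 of 28 and 25 of 26 in the lists below, against 10.7% of all genes. Of 28 tested genes of the chromosomal passenger complex, the spindle checkpoint and the kinetochore, 27 were lower and none higher, with a median of −1.05. Their median 4N minus 2N difference was 1.44 in control and 0.38 in Anillin cultures. For the 29 members with recovered reads it was 2.19 and 1.22. CDCA8, the borealin subunit of the passenger complex, had an interaction of −1.84 and INCENP, its scaffold, −1.54, while survivin (BIRC5) at −0.64 was the member that did not pass (adjusted p = 0.0583, limma-trend). HJURP, the chaperone that loads the centromeric histone CENPA, had −1.60. Of 26 mitotic kinesins and microtubule proteins, 25 were lower, with a median of −1.33, and KIF20A at −0.49 did not pass. Their median 4N minus 2N difference was 2.01 in control and 0.61 in Anillin cultures. For the 27 members with recovered reads it was 2.46 and 1.17. KPNA2 (ENSG00000182481, chr17:68035519-68046842), an importin alpha that binds spindle assembly factors, read 10.2, 7.75 and 8.94 RPKM in control 2N, 63.0, 55.5 and 60.2 in control 4N, 7.42, 7.46 and 7.28 in Anillin 2N against 12.0, 12.2 and 13.4 in Anillin 4N. The Anillin 4N libraries were above both 2N groups and far below control 4N. Its interaction was −1.94 ± 0.12 (SE, adjusted p = 1.86e-05, limma-trend). FAM83D, a spindle protein, had −1.80 and the kinesin KIF23 of the midzone −1.56.

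TOP2A (ENSG00000131747, chr17:40388516-40417950), the topoisomerase that untangles sister chromatids, read 5.94, 4.64 and 5.28 RPKM in control 2N, 44.0, 41.3 and 42.5 in control 4N, 1.66, 1.65 and 1.71 in Anillin 2N against 4.58, 4.30 and 4.67 in Anillin 4N. Its Anillin 4N level reached only the lower end of control 2N, and its interaction was −1.70 ± 0.10 (SE, adjusted p = 1.19e-05, limma-trend). Condensins, cohesin and chromosome coat genes were lower in 20 of 21 cases, against 10.7% of all genes, with a median of −0.87. The proliferation marker MKI67 had a smaller interaction of −0.83 (adjusted p = 0.00696, limma-trend), since it rose by 1.46 in Anillin cultures as well as by 2.29 in control. On recovered reads these rises were 1.82 and 2.39, and the interaction was −0.57.

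The anaphase-promoting complex and its substrates were lower in 10 of 11 cases, against 10.7% of all genes, with a median of −0.76. UBE2C (ENSG00000175063, chr20:45812576-45816957), the E2 enzyme of that ubiquitin ligase, had the largest control difference of the named genes. It read 5.11, 3.08 and 3.98 RPKM in control 2N, 53.1, 44.7 and 48.6 in control 4N, 1.51, 1.21 and 1.22 in Anillin 2N against 5.41, 5.06 and 5.79 in Anillin 4N, an interaction of −1.75 ± 0.20 (SE, adjusted p = 0.000482, limma-trend). CDC20, its activator, read 12.2, 7.35 and 11.3 in control 2N, 71.3, 60.8 and 68.3 in control 4N, 2.93, 2.66 and 2.79 in Anillin 2N against 10.8, 10.5 and 11.0 in Anillin 4N. The CDC20 interaction of −0.90 ± 0.21 (adjusted p = 0.0203) missed the threshold without the filter on low values (adjusted p = 0.0535), without control 4N replicate 1 (0.0588) and without control 4N replicate 3 (0.0514). The securin gene PTTG1, an inhibitor of separase, had −0.76, and separase itself (ESPL1) −1.23.

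Of 25 contractile ring, midbody and septin genes tested, a list that holds partners of Anillin, 12 were lower, 13 did not pass and none was higher, against 10.7% lower and 4.93% higher of all genes. The list median was −0.20. The largest interactions were those of the cytokinesis factors KIF23, PLK1, RACGAP1 (−1.37), ECT2 (−1.14), CEP55 (−1.11) and PRC1 (−0.99), which also rise in G2. SEPTIN7 at −0.27, SEPTIN11 at −0.20 and non-muscle myosin MYH10 at −0.25 also passed, while SEPTIN9 at −0.01, RHOA at −0.19 and MYH9 at 0.09 did not.

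**Figure D2:**
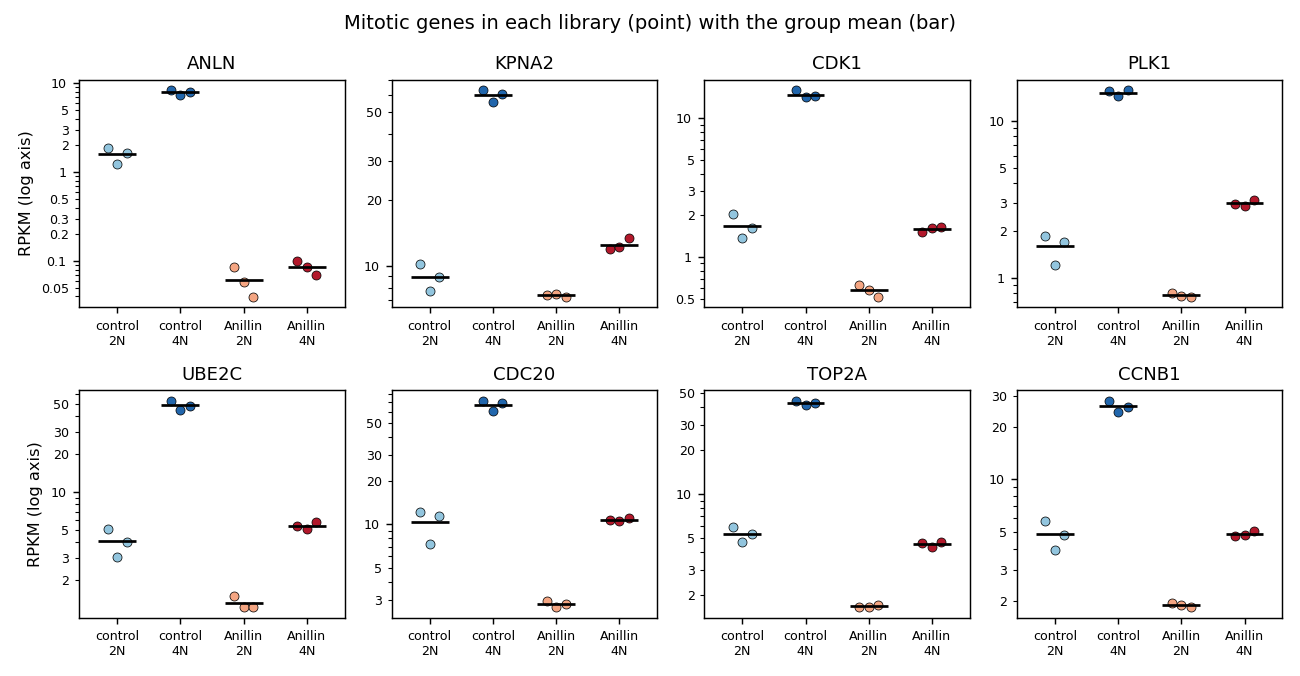
Each panel gives the RPKM of 1 gene on a log axis in the 12 libraries, with points for libraries and bars for the means of the 4 groups of 3. In the panels other than ANLN the Anillin 4N libraries stand near or somewhat above control 2N and well below control 4N, as for CDC20 with 10.5 to 11.0 against 60.8 to 71.3.

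The remaining rise in RPKM in Anillin cultures was a small share of the control rise for most of these genes, and the share differed between genes. This measure was chosen after the data had been seen, and was computed as the RPKM difference 4N minus 2N in Anillin cultures in percent of that in control cultures. An siRNA difference in the 2N fraction also enters this share, so a low share is not by itself a lower interaction. BIRC5 at 12.0% and KIF20A at 18.0% had interactions that did not pass. Over the 224 genes that rose at least 2-fold in control cultures, the median share was 12.3% with quartiles of 9.95% and 14.9%, and 211 of them had a lower interaction, which the choice by control rise favours. The share was 7.81% for CDK1, 7.63% for TOP2A, 9.19% for UBE2C, 10.2% for KPNA2, 12.9% for MKI67, 13.8% for CCNB1, 14.1% for CDC20 and 16.4% ± 0.82 (SE) for PLK1. The SE was 0.35 for TOP2A and 0.53 for CDK1, so the distance from these to PLK1 is several times the SE. ANLN stood at 0.376% ± 0.25 and its level is set by the siRNA. Thymidylate synthase, TYMS, stood at 31.4% ± 5.0 with an interaction of −0.35 that did not pass, and the kinetochore gene CENPW at 27.8% ± 6.5. In all, 7 genes lay above 25%, and the 1 above 50% was an unnamed identifier at 72.6% ± 50.3. Only the long non-coding RNA AC091057.4 was below 0, at −6.99% ± 11.3. The median stayed between 11.4% and 13.1% with each library left out.

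**Figure D3:**
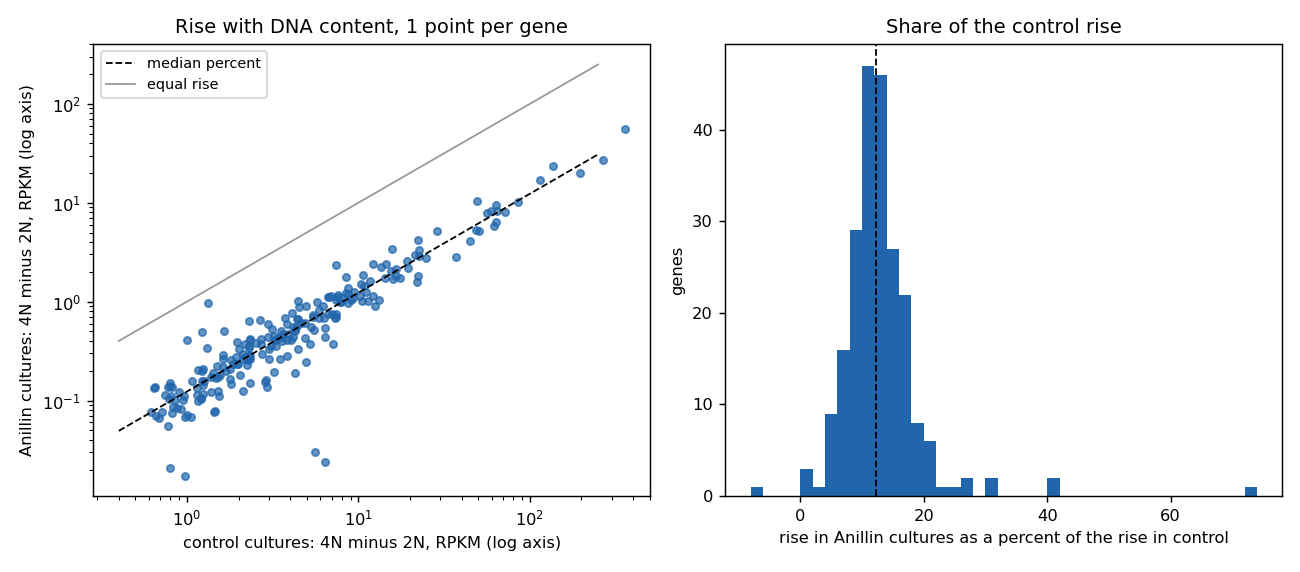
On the left, the RPKM difference 4N minus 2N in Anillin cultures is plotted against that in control cultures on log axes for 223 of the 224 genes that rose at least 2-fold in control (the gene with a negative value cannot be drawn), and on the right all 224 shares are counted in percent. Most points follow the dashed line at the median of 12.3% and ANLN at 0.376% falls far below it.

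The converse was less uniform, though the cut for falls was lower than the 2-fold used for rises. Of 120 genes that fell at least 1.5-fold with DNA content in control cultures, 55 had a higher interaction and 65 did not pass. The choice by control fall favours a higher interaction. The change in Anillin cultures was a median of 27.9% of the control fall, with quartiles of −4.73% and 48.9%.

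Of 35 DNA replication and G1/S genes tested, 11 were lower, 1 was higher and 23 did not pass, against 10.7% lower and 4.93% higher of all genes, with a median of −0.40, and the medians of the siRNA difference were −0.67 in 2N and −1.03 in 4N. ORC6, a subunit of the origin recognition complex, read 1.81, 1.32 and 1.82 RPKM in control 2N, 4.90, 4.31 and 4.41 in control 4N, 0.955, 0.856 and 0.771 in Anillin 2N against 0.991, 0.979 and 1.09 in Anillin 4N. The Anillin 4N libraries were above Anillin 2N by little and below every control library, and the interaction was −1.07. The histone chaperone ASF1B had −0.85 and the flap endonuclease FEN1 −0.77. PCNA, the sliding clamp, which is also a p53 target, had −0.03, with differences of 0.55 in control and 0.52 in Anillin cultures. Cyclin E2 (CCNE2) was the 1 gene with a higher interaction, 0.40 (adjusted p = 0.0149), which missed the threshold with a pseudocount of 0.1 (0.117) and on recovered reads (0.434). Homologous recombination and Fanconi genes were lower in 11 of 12 cases, with a median of −0.54, led by FANCG at −0.84 and FANCI at −0.76. This median moved between −0.31 without the filter and −0.76 with the stricter one.

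Tubulins and the nuclear envelope followed the same direction. The counts of this paragraph are to be read against 10.7% lower and 4.93% higher of all genes. Of 12 genes tested in the tubulin list, 10 were lower, with a median of −0.72, each rising in control and not called in Anillin cultures. TUBB4B, a beta tubulin, read 106, 76.2 and 101 RPKM in control 2N, 314, 256 and 304 in control 4N, 67.1, 59.6 and 64.8 in Anillin 2N against 78.6, 79.3 and 93.6 in Anillin 4N, an interaction of −1.24 ± 0.18 (SE, adjusted p = 0.00192, limma-trend). Tubulin genes share sequence with each other and with pseudogenes, so the split of reads between them is uncertain. In the nuclear transport and lamina list 16 of 22 were lower, with a median of −0.50, among them the lamina-binding protein TMPO at −1.24, lamin B1 (LMNB1) at −0.99 and RANGAP1 at −0.91. Lamin A (LMNA), at 0.11, did not pass. The centrosome and PIDDosome list held 11 lower genes of 17, such as the centriole kinase PLK4 at −1.06 and the centrobin gene CNTROB at −0.95. It also held 2 higher ones, PIDD1, the core of the PIDDosome that senses extra centrosomes, at 0.56, and CEP250 at 0.23.

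The p53 targets had higher interactions. Of 38 tested, 23 were higher and none was lower, against 4.93% and 10.7% of all genes, and their median was 0.37. The list medians of the 4N minus 2N difference were 0.04 in control and 0.34 in Anillin cultures. Of the 23, 14 rose in Anillin cultures and were not called in control, 4 rose in both, 3 fell in control and were not called in Anillin cultures, 1 (PLK3) fell in control and rose in Anillin cultures, and 1 passed in neither. On recovered reads (limma-voom, where 6.36% of 22404 genes were higher and 8.19% lower) 35 of 51 members were higher and 3 were lower, APAF1 at −0.33, SERTAD1 at −0.26 and TP53I11 at −0.60.

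MDM2 (ENSG00000135679, chr12:68808176-68850686), the ubiquitin ligase that p53 induces and that degrades p53, had the largest of these interactions. It read 2.21, 2.42 and 2.14 RPKM in control 2N, 2.27, 2.52 and 2.40 in control 4N, 2.77, 2.79 and 2.46 in Anillin 2N against 6.72, 6.46 and 6.28 in Anillin 4N. Only the Anillin 4N libraries stood apart, and the other 3 groups lay between 2.14 and 2.79. The interaction was 1.07 ± 0.08 (SE, adjusted p = 3.25e-05, limma-trend), from 0.07 in control and 1.14 in Anillin cultures. CDKN1A (ENSG00000124762, chr6:36676460-36687339), which encodes p21, read 25.9, 28.2 and 26.9 in control 2N, 28.4, 33.8 and 31.3 in control 4N, 44.4, 43.1 and 40.5 in Anillin 2N against 84.7, 86.9 and 83.9 in Anillin 4N. Anillin libraries were above control in both fractions and highest in 4N, with no overlap between the siRNAs. The interaction was 0.79 ± 0.09 (SE, adjusted p = 0.000419, limma-trend).

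BTG2, an antiproliferative gene, read 3.06, 3.36 and 3.02 RPKM in control 2N, 2.95, 3.31 and 2.94 in control 4N, 5.86, 5.75 and 5.43 in Anillin 2N against 9.82, 11.0 and 10.7 in Anillin 4N. The 2 control fractions overlapped while the Anillin fractions did not, and the interaction was 0.87 ± 0.08 (SE, adjusted p = 0.000168, limma-trend). FDXR, a mitochondrial ferredoxin reductase, read 1.66, 1.62 and 1.68 in control 2N, 2.38, 2.52 and 2.47 in control 4N, 3.15, 2.73 and 2.60 in Anillin 2N against 7.02, 7.95 and 7.41 in Anillin 4N. It rose with DNA content under both siRNAs, by 0.46 and 1.26, an interaction of 0.80. The survival factor TRIAP1 (0.57), the nuclease AEN (0.46) and CDKN1A were also among the 6 genes that rose in both and more in Anillin cultures, with the carboxylesterase CES2 (0.36) and an unnamed identifier. Other members with higher interactions were TP53INP1 (0.61), the death receptor TNFRSF10B (0.56), EDA2R (0.56), XPC of nucleotide excision repair (0.51) and the metabolic regulator TIGAR (0.49). Other p53 targets had interactions near 0 that did not pass. The 4N minus 2N differences in control and Anillin cultures were 0.58 and 0.59 for the death receptor FAS, 0.47 and 0.53 for BAX and 0.25 and 0.27 for the DNA repair gene DDB2.

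In the BCL2 family, which sets the threshold for mitochondrial apoptosis, 3 of 12 were higher, none was lower and 9 did not pass, against 4.93% higher and 10.7% lower of all genes, with a median of 0.09. BBC3, the p53-induced killer PUMA, read 0.677, 0.644 and 0.805 RPKM in control 2N, 0.616, 0.738 and 0.797 in control 4N, 1.07, 1.04 and 1.15 in Anillin 2N against 2.34, 2.37 and 2.31 in Anillin 4N. The control fractions overlapped and the Anillin 4N libraries were highest, an interaction of 0.83 ± 0.09 (SE, adjusted p = 0.000269, limma-trend). BMF, another BH3-only killer, reached its interaction of 0.88 in another way. It read 6.75, 7.88 and 7.78 in control 2N, 3.99, 5.17 and 4.70 in control 4N, 12.9, 12.4 and 13.1 in Anillin 2N against 14.7, 15.8 and 15.0 in Anillin 4N. It fell by 0.64 with DNA content in control cultures, while its difference of 0.23 in Anillin cultures did not pass. The survival gene BCL2L1 had 0.29, and PMAIP1 (NOXA) at −0.18, MCL1 at 0.11 and BAK1 at 0.08 did not pass.

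Among G1 cyclins and CDK inhibitors, 5 of 15 were lower, none was higher and 10 did not pass, against 10.7% lower and 4.93% higher of all genes. CDKN2D (p19) at −1.45, CDKN2C (p18) at −1.10, CDK2 at −0.85 and the phosphatase CDKN3 at −0.88 rose in control cultures, and CDKN3 missed the threshold on recovered reads (adjusted p = 0.0616, limma-voom). The retinoblastoma gene RB1 was lower at −0.22. Cyclin D1 (CCND1) had an interaction of −0.21 with a 95% interval of −0.49 to 0.07, and did not pass. CCNE1 did not reach the filter on RPKM, and on recovered reads its interaction was 0.39 (adjusted p = 0.161, limma-voom).

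**Figure D4:**
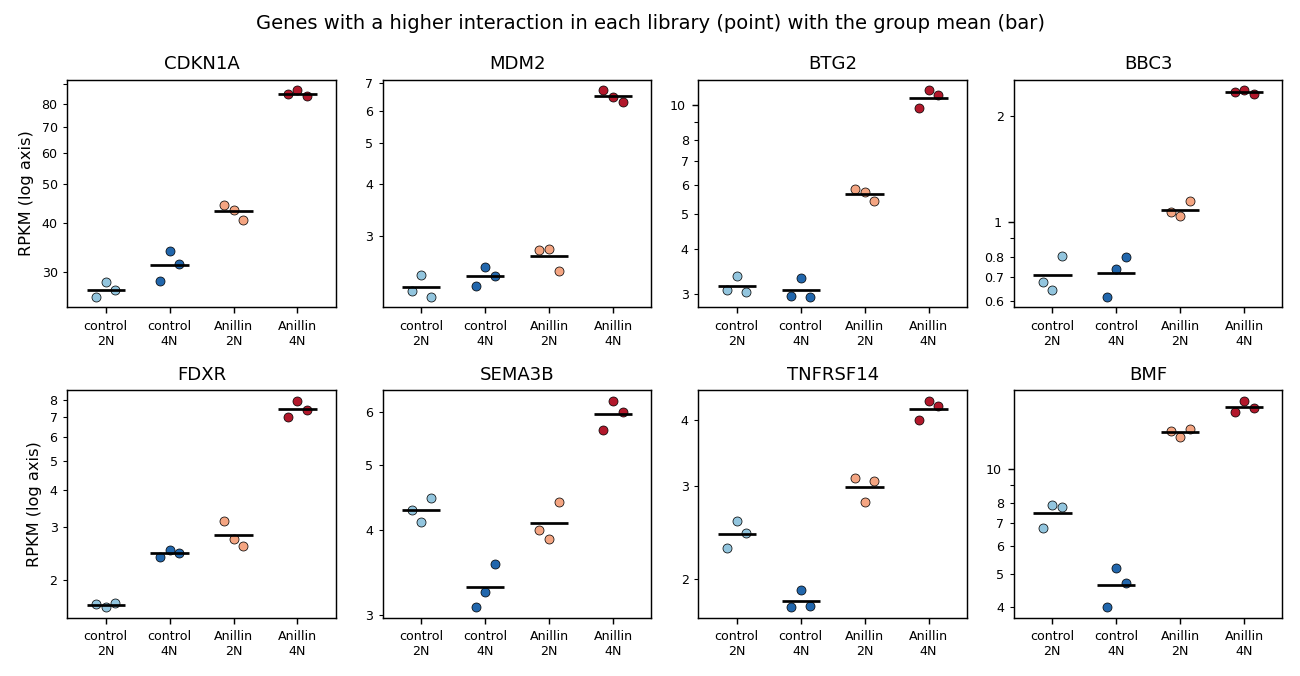
Each panel gives the RPKM of 1 gene with a higher interaction on a log axis in the 12 libraries, with points for libraries and bars for the group means. For MDM2, BTG2 and BBC3 the 2 control fractions overlap and Anillin 4N stands above all other groups, while SEMA3B and TNFRSF14 are lower in control 4N than in control 2N, with the opposite order in Anillin cultures.

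A small set of genes changed with DNA content in opposite directions under the 2 siRNAs. The 22 that fell in control and rose in Anillin cultures included SEMA3B (ENSG00000012171, chr3:50267558-50277546), a secreted semaphorin, which read 4.30, 4.12 and 4.47 RPKM in control 2N, 3.07, 3.25 and 3.56 in control 4N, 4.01, 3.88 and 4.41 in Anillin 2N against 5.64, 6.24 and 5.995 in Anillin 4N. The 2N groups of both siRNAs overlapped, control 4N was lowest and Anillin 4N highest, an interaction of 0.83 ± 0.09 (SE, adjusted p = 0.000253, limma-trend). TNFRSF14, a receptor of the tumour necrosis factor family, read 2.29, 2.58 and 2.45 in control 2N, 1.77, 1.91 and 1.77 in control 4N, 3.10, 2.80 and 3.07 in Anillin 2N against 4.00, 4.35 and 4.24 in Anillin 4N, an interaction of 0.77. The small nucleolar RNA SNORA31 had 0.94.

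The 7 that rose in control and fell in Anillin cultures were MARCKSL1, ARPC5, CLIC4, B4GALT5, MTPN, RAB10 and an unnamed identifier. MARCKSL1, an actin-binding membrane protein (ENSG00000175130, chr1:32333832-32336379), read 44.3, 43.7 and 43.5 RPKM in control 2N, 55.2, 53.04 and 54.98 in control 4N, 56.7, 54.9 and 52.2 in Anillin 2N against 46.3, 48.7 and 46.6 in Anillin 4N. Control 4N and Anillin 2N overlapped at the high end, and the interaction was −0.52 ± 0.05 (SE, adjusted p = 0.00027, limma-trend). ARPC5, a subunit of the actin-nucleating ARP2/3 complex, read 21.8, 21.0 and 20.1 in control 2N, 25.3, 25.1 and 24.1 in control 4N, 18.5, 19.0 and 18.5 in Anillin 2N against 15.9, 15.9 and 16.4 in Anillin 4N, an interaction of −0.46. The chloride channel family member CLIC4 had −0.33. Among the 23 genes that fell in Anillin cultures and were not called in control were RGS4, a brake on G protein signalling, at −0.40, the ARP2/3 subunit ACTR2 at −0.21, the actin-recycling factor CAP1 at −0.23 and the nucleotide enzyme PRPS1 at −0.24. ACTR2, CAP1, B4GALT5, MTPN and RAB10 were named after their values were seen. In the fixed list of actin and smooth muscle genes 1 of 17 was lower, against 10.7% of all genes. This was TPM4 at −0.22, and that call was lost with quantile scaling. The list median of −0.12 became 0.0052 with that scaling. ACTB had −0.23 with a 95% interval of −0.42 to −0.03 and an adjusted p of 0.11 (limma-trend).

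Targets of ATF4 and of the unfolded protein response were called in both directions. Of 32 tested, 10 were lower, 6 were higher and 16 did not pass, against 10.7% lower and 4.93% higher of all genes, with a median of −0.10. The lower ones included the one-carbon enzyme MTHFD2 at −0.61, the serine synthesis enzyme PSAT1 at −0.61, asparagine synthetase (ASNS) at −0.32 and the cystine transporter SLC7A11 at −0.24, as well as ATF4 itself at −0.46. MTHFD2 read 3.32, 2.83 and 3.40 RPKM in control 2N, 5.27, 4.77 and 4.95 in control 4N, 2.24, 2.14 and 2.04 in Anillin 2N against 2.13, 2.06 and 2.08 in Anillin 4N, so that it rose by 0.58 in control cultures while the Anillin fractions overlapped. The higher ones were the stress-induced factors ATF3 (0.63), CEBPB (0.52) and DDIT3 (0.46), the mTORC1 inhibitors DDIT4 (0.50) and SESN2 (0.26), and VEGFA (0.49). VEGFA, the endothelial growth factor, fell by 0.50 in control cultures and differed by −0.01 in Anillin cultures. The chaperones HSPA5 and DNAJB9 of the endoplasmic reticulum had interactions of 0.08 and 0.15 and did not pass.

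Of 27 heat shock and chaperone genes, 7 were lower, none was higher and 20 did not pass, against 10.7% lower and 4.93% higher of all genes, with a median of −0.18. HSPA8, the constitutive HSP70, read 191, 183 and 199 RPKM in control 2N, 277, 267 and 275 in control 4N, 204, 202 and 190.4 in Anillin 2N against 183, 188 and 178 in Anillin 4N. Control 4N alone was high, and the interaction was −0.63 ± 0.06 (SE, adjusted p = 0.000107, limma-trend). HSP90AA1 had −0.43, STIP1 −0.48 and HSPH1 −0.30, the last lost with quantile scaling. The stress-inducible HSPA1A (−0.06) and HSPA1B (−0.02), which are near-identical copies, did not pass.

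Inflammatory and secretory genes were higher in 4 of 19 cases and lower in none, a share to be read against 4.93% of all genes, with a median of 0.25 that was 0.07 without the filter. The 4 fell in control cultures and were not called in Anillin cultures. The cytokine IL1B read 4.58, 4.44 and 4.96 RPKM in control 2N, 2.32, 2.45 and 2.21 in control 4N, 2.88, 2.50 and 2.71 in Anillin 2N against 1.91, 2.23 and 2.44 in Anillin 4N, an interaction of 0.62 with a control fall of 0.87. The prostaglandin enzyme PTGS2 had 0.59, the macrophage factor CSF1 0.46 and ANGPTL4 0.39. CXCL8 (0.02) and CCL2 (0.03) had interactions near 0, with 4N minus 2N differences of −0.55 and −0.71 in control and −0.53 and −0.68 in Anillin cultures.

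Of 23 YAP/TAZ-TEAD targets and Hippo genes, 3 were higher (ANKRD1 at 0.56, TEAD3 at 0.30 and ARHGEF17 at 0.24) and none was lower, with a median of 0.10. Of all genes tested 4.93% were higher and 10.7% lower. The secreted YAP targets CCN1 (0.33, adjusted p = 0.113, limma-trend) and CCN2 (0.27, adjusted p = 0.39) did not pass. Both fell with DNA content under both siRNAs. Control 2N replicate 3 was the lowest of its group for both genes, at 168 RPKM for CCN1 and 165 for CCN2, and without it both passed, at 0.44 (adjusted p = 0.0102) and 0.46 (0.0138). CCN1 also passed on recovered reads (adjusted p = 0.0428, limma-voom). In the TGF-beta and extracellular matrix list 2 of 26 were higher, among them TGFB1 at 0.33, and none was lower, with a median of 0.07. The higher count is close to the 4.93% of all genes.

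Sterol and fatty acid synthesis had an interaction close to that of all genes, with 2 of 31 higher and 2 lower. Of all genes, 4.93% were higher and 10.7% lower. The list median was −0.02, which was 0.065 with quantile scaling. The siRNA difference of this list was a median of −0.47 in both fractions. The largest was that of TM7SF2, a sterol reductase (ENSG00000149809, chr11:65111845-65116384), which read 4.29, 4.35 and 4.14 RPKM in control 2N, 2.05, 2.64 and 2.34 in control 4N, 2.85, 2.34 and 2.33 in Anillin 2N against 2.81, 3.02 and 2.56 in Anillin 4N. Only control 2N stood apart, and the interaction was 0.88 ± 0.12 (SE, adjusted p = 0.00148, limma-trend). The other 3 calls were CYP51A1 at 0.16, mevalonate kinase (MVK) at −0.38 and FADS1 at −0.18.

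In the remaining lists the counts are to be read against 4.93% higher and 10.7% lower of all genes. No call was made in limma-trend among the 13 mitochondrially encoded messengers (median −0.00) or the 9 replication-dependent histone genes that passed the filter (median 0.02), and none among either on recovered reads by limma-voom. At an unadjusted p under 0.05 by limma-trend there were 0 and 2. Of 15 housekeeping genes 1 was lower, YWHAZ at −0.28, lost with quantile scaling. GAPDH had −0.15 with a 95% interval of −0.39 to 0.09, and 0.07 with quantile scaling. Interferon-stimulated genes gave 2 higher and 3 lower of 29, glycolysis 1 and 1 of 24 (median −0.08, and 0.01 with quantile scaling), the lysosome 1 and 1 of 28, NRF2 targets 0 and 3 of 16, ribosome biogenesis 0 and 2 of 20, and immediate early genes 1 and 2 of 28. Of 18 growth arrest genes 4 were higher and 2 lower, with a median of 0.05. They included the transcription repressors MXD3 at −0.80 and MXD4 at 0.37 and the senescence-linked YPEL3 at 0.67. The other 3 calls were PIK3IP1 at 0.51, KLF9 at 0.35 and TOB2 at −0.23, which were named after their values were seen.

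**Figure D5:**
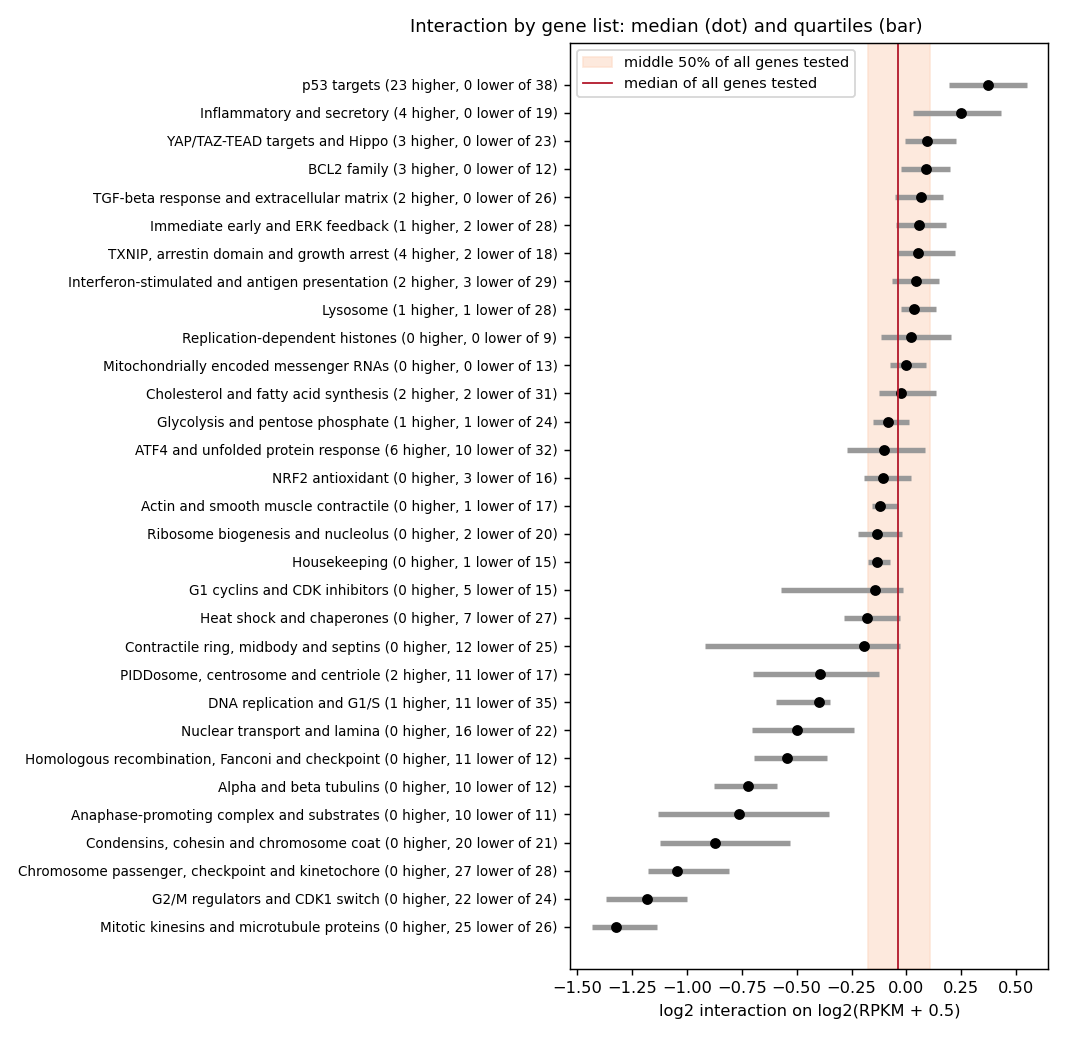
For each gene list with at least 5 genes tested, the dot is the median log2 interaction and the bar spans its quartiles, with the counts of higher and lower genes beside the name, and the shaded band holds the middle 50% of all genes tested. The mitotic lists lie far left of the band, with a median of −1.33 for kinesins, and the p53 targets lie to its right at 0.37.

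Across the series, reads in genes numbered 17412742 to 61760450 per library, with the Anillin 4N replicates 1 and 2 shallowest. The share of mitochondrial genes was 3.31% to 4.54%, and that of protein coding genes 92.4% to 93.1%. Replicates of each group differed by more than sampling noise, so none was the same library deposited again. Of 11 markers of retinal pigment epithelium 3 passed the filter (KRT8, KRT18 and OTX2), none of them past the interaction threshold, and the defining markers RPE65 and BEST1 did not pass it. Summed over the 11, RPKM ran from 134.5 to 152.1 in control 2N, 121.1 to 123.9 in control 4N, 112.6 to 125.0 in Anillin 2N and 99.6 to 109.1 in Anillin 4N. Of 7 blood cell markers CD68 passed the filter, with an interaction of 0.07 that did not pass. Markers of other epithelia and muscle summed to between 0.096 and 0.261 in any library, and the part of these differences in the results above was not tested.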

How the data were processed

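RNA of sorted RPE1 cells was measured by RNA-seq in 12 libraries, 3 per group. The authors deposited 1 table of RPKM values for 57773 gene identifiers. The submitters' processing notes name CASAVA 1.8.2, TopHat2, edgeR and hg19 without roles, while annotation, counter and strand setting were not given in the sources used here. The labels' protocols name a stranded mRNA kit and also ribo-depleted RNA, and do not settle which selection was used. To within 0.01 read, the deposited RPKM values of 29241 of the 38571 genes above 0 were whole reads divided by a library size and a length. This length was the genomic span in GENCODE 29, introns included. For the other 9330, reads were taken by the smallest common divisor of their own values, so what their length covers was not settled. Of these, 6521 were above 0 in all 12 libraries, and 100% of the 6521 gave a length in whole bases. For a gene above 0 in 1 library such a divisor always exists and checks nothing. Where true counts share a factor, the recovered reads would be too low. Levels are therefore not compared between genes, and genes that overlap cannot be told apart without the strand setting. A filter on RPKM likewise depends on length as well as on reads, so a long gene can fail it with many reads. Of 24 recombination genes 12 passed it, while all 24 were tested on recovered reads.

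Genes with RPKM of at least 0.5 in at least 3 libraries were tested with limma-trend (limma 3.58.1, R 4.3.3) on log2(RPKM + 0.5). The pseudocount understates the 4N minus 2N and siRNA differences of low genes. An interaction is not always understated by it, since the lower Anillin values can be compressed more than the control ones. NEK2 had −1.56 against −0.84 on recovered reads, while PIF1 had −1.76 against −2.00. All 12 libraries and 1 mean per group entered 1 fit, with two-sided p-values adjusted over all genes by Benjamini-Hochberg and a threshold of 0.05. Unless a unit is given, differences and interactions are on this log2 scale. The script was tested on simulated data. Alternatives were pseudocounts of 0.1 and 1, no filter, RPKM of at least 1 in at least 6 libraries, quantile and median-of-ratios scaling, limma-voom on recovered reads (22404 genes with 10 reads or more in 3 libraries), robust empirical Bayes, and each library left out. Depth limits precision, most of all for Anillin 4N.

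Named genes passed the main test and all 12 fits with a library left out, and had a group mean of 2 RPKM or more: the 10 largest each way, and the 3 largest in each list and in each class of DNA content differences. The 16 genes ANLN, CDKN1A, MDM2, BTG2, CCNB1, CDC20, MKI67, TOP2A, CCND1, CCNE1, CCNE2, CCNA2, CCN1, CCN2, ACTB and GAPDH were named whatever their values. Other list members, RRAD and CES2 serve as examples and were picked after their values were seen. Members and lists were chosen with earlier results of these data known, so lists have counts and medians and no test. Some genes belong to several lists, such as KPNA2, NEK2, KIF23 and ESPL1, so the list counts are not separate observations. UHRF1, ACACA, BOP1, TXNIP and 26 histone symbols were not matched and were not analysed here. Some members of the lists are counted but not reported by name here.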

Additional observations from a re-analysis of the deposited data

Results flagged for a closer look

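The interaction is itself a test of whether the DNA content difference differed between the siRNAs, and it passed for 636 genes with a higher value and for 1383 with a lower one, by limma-trend with Benjamini-Hochberg adjustment. Called differences of opposite direction in control and Anillin cultures were found for 22 genes (lower in control 4N, higher in Anillin 4N) and for 7 genes (the reverse). The 3 largest interactions of each kind that also passed with every library left out and met the level minimum were SNORA31 (0.94), SEMA3B (0.83) and TNFRSF14 (0.77), and MARCKSL1 (−0.52), ARPC5 (−0.46) and CLIC4 (−0.33).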

How the results depend on the processing

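No paired analysis was possible because the labels number the samples in 1 series across the groups and tie no 2N fraction to a 4N fraction. On recovered reads the interaction was higher for 1424 genes (6.36% of 22404) and lower for 1834 (8.19%). Of the 2019 genes called on RPKM, 1990 were tested there, 1785 were called in the same direction and 3 had the opposite sign. With the stricter filter 413 were higher and 857 lower. With each library left out, the counts lay between 340 and 607 for higher and between 753 and 1344 for lower. No called interaction changed sign on the linear RPKM scale.

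Of the DNA content differences, control falls numbered 1119 with the stricter filter, 3887 on recovered reads and 1071 to 1696 with a library left out. Rises in Anillin cultures numbered 576 on recovered reads and 191 to 453 with a library left out (191 with Anillin 2N replicate 2 left out, 195 and 212 with replicates 2 and 3 of Anillin 4N left out). Falls there numbered 193 with quantile scaling, 329 on recovered reads and 50 to 163 with a library left out (50 without Anillin 2N replicate 2). For the siRNA in 2N, recovered reads gave 2779 higher and 3620 lower against 1473 and 2209, and in 4N 4651 higher, with 3945 without the filter, against 2582.

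List medians kept their sign, apart from actin and glycolysis genes with quantile scaling, cholesterol genes with both scalings, and mitochondrial messengers, histones and immediate early genes, whose medians lay near 0. With quantile scaling they were −0.65 for the anaphase-promoting complex, −0.082 for the contractile ring, −0.78 for condensins, 0.46 for p53 targets, 0.14 for the BCL2 family, −0.48 for centrosomes, 0.0052 for actin, 0.13 for interferon, 0.065 for cholesterol, 0.16 for immediate early genes, 0.010 for glycolysis, 0.12 for the lysosome, −0.015 for NRF2 targets and −0.019 for housekeeping genes. With median-of-ratios they were −0.15 for the contractile ring, 0.13 for the BCL2 family and −0.091 for housekeeping genes. On recovered reads they were −1.08 for G2/M, −0.90 for kinetochores, −0.75 for recombination, 0.45 for p53 targets, 0.14 for the BCL2 family, −0.54 for centrosomes and 0.14 for growth arrest. Without the filter they were −0.66 for the anaphase-promoting complex, −0.31 for recombination, 0.32 for p53 targets, −0.31 for centrosomes and 0.071 for inflammatory genes. With the stricter filter they were −1.29 for G2/M, −0.76 for recombination, −0.17 for centrosomes and 0.13 for growth arrest. With a pseudocount of 0.1 they were −0.74 for recombination, −0.65 for centrosomes and −0.58 for nuclear transport, and with 1 they were −0.85 for kinetochores, −0.38 for recombination and −0.28 for centrosomes. With a library left out they lay between −1.29 and −1.09 for G2/M, −1.13 and −0.93 for kinetochores, −0.85 and −0.65 for the anaphase-promoting complex, −0.94 and −0.82 for condensins, −0.75 and −0.48 for recombination, 0.36 and 0.45 for p53 targets, −0.41 and −0.33 for centrosomes, −0.11 and 0.055 for mitochondrial messengers and −0.16 and −0.080 for housekeeping genes. Fewer or other genes enter under another filter or on reads; otherwise the cause was not tested. GAPDH changed sign, to 0.069, with quantile scaling. TM4SF1 and UHMK1 lost their calls there, MIR4477B on reads.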

Other observations

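Of the 2019 genes past the interaction threshold, 1662 were protein coding and 126 were processed pseudogenes, which share sequence with their parent genes, so the source of their reads is uncertain. RPL13P8, a pseudogene of a ribosomal protein gene, read 1.20, 1.18 and 1.53 RPKM in control 2N, 5.50, 5.29 and 5.95 in control 4N, 0.578, 0.385 and 1.13 in Anillin 2N against 0.7501, 0.7601 and 1.15 in Anillin 4N. Its interaction was −1.51 ± 0.28 (SE, adjusted p = 0.00642, limma-trend). The Anillin values rest on 7 to 23 recovered reads per library. On recovered reads its interaction was −1.39 ± 0.41 (SE, adjusted p = 0.0291, limma-voom). MIR4477B, a microRNA gene on chromosome 9, had an interaction of 1.20 (adjusted p = 0.0166) that missed the threshold on recovered reads (0.0674, limma-voom).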
